A study of Rattus norvegicus with 10 samples.

Results

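Red blood cells and their precursors use a small set of genes known mainly from that lineage, and 9 of them were followed here in rat liver after total-body irradiation (TBI). Which cells of the liver their signals came from was not measured. The genes were Alas2, Ahsp, Slc4a1, Epb42, Rhag, Hemgn, Klf1, Gata1 and Tal1. They were chosen by name, as all probes on the array whose accession gives one of these symbols, which came to 13 of 41012 probes and to 9 of the 13438 genes with a symbol. Liver RNA of male Wistar rats was measured on single-colour arrays, with 1 array per rat. Control rats (n = 3) are labelled as given 0 Gy, and the study calls them untreated. TBI rats (n = 3) had received 6.5 Gy from a cobalt-60 source according to the labels. MASM + TBI rats (n = 4) had received the same dose after MASM, a derivative of the plant alkaloid matrine, given into the stomach at 30 mg/kg a day for 3 days. All livers were taken 24 h after the irradiation. The arrays held no rats given MASM alone, so the effect of MASM without irradiation was not analysed here. Signals are given as log2 of the background-corrected spot intensity after quantile normalization, a step that gives all arrays the same distribution of values. A difference of 1 on this scale is a 2-fold difference.

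In rodents red cells are made mainly in the bone marrow and spleen, and the adult liver holds them in its vessels, where young red cells still contain RNA for haemoglobin and for the proteins of its assembly. Alas2 makes the erythroid form of the enzyme that starts heme synthesis, and Ahsp encodes a chaperone of free alpha-globin. Slc4a1 encodes band 3, the anion exchanger of the red cell membrane, Epb42 encodes protein 4.2, which binds band 3 to the membrane skeleton, and Rhag encodes the Rh-associated glycoprotein. Gata1, Klf1 and Tal1 encode transcription factors that drive erythroid genes, and Hemgn encodes a nuclear protein of blood precursors.

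Factors of these kinds bind short motifs near erythroid genes, and the promoters below show where such letters lie in a member whose mean was below that of control rats in both irradiated groups (Alas2), in a globin that followed it from rat to rat (Hbb-b1) and in a member with differences of the opposite sign (Epb42). RefSeq's promoter table for the GRCr8 assembly matched 7 of the 9 members, and 2 were absent from it (Slc4a1 and Ahsp). Each run holds the 250 bases before the start of the gene, read 5′ to 3′ on the strand of the gene. The coordinates are chrX:22895200-22895449 on the plus strand for Alas2, chr1:167643521-167643770 on the minus strand for Hbb-b1 and chr3:128451684-128451933 on the minus strand for Epb42. Capitals mark the GATA motif in its 4 forms (AGATAA or AGATAG, and also TGATAA or TGATAG) and CACCC, the core letters bound by KLF1, on either strand.
Alas2: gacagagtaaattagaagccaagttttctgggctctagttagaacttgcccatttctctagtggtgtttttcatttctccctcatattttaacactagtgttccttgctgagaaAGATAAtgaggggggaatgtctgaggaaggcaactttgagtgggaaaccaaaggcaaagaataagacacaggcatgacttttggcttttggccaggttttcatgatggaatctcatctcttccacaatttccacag
Hbb-b1: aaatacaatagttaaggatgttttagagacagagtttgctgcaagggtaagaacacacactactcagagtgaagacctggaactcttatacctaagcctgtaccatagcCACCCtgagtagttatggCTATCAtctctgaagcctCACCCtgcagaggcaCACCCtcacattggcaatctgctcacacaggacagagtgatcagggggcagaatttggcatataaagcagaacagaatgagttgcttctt
Epb42: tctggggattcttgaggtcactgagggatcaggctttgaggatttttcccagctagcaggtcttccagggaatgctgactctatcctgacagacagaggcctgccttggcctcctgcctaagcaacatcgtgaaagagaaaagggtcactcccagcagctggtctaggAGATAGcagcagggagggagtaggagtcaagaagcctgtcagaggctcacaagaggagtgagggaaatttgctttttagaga
Alas2 held 1 GATA motif 136 bases before the start, Epb42 held 1 at 82 bases, and Hbb-b1 held 1 at 123 bases with 3 CACCC runs. Of the 7 members in the table, 5 held a GATA motif (Alas2, Klf1, Rhag, Epb42 and 1 of the 2 starts of Hemgn), 3 held CACCC (Klf1, Gata1 and Rhag) and 4 held CANNTG, the letters bound by TAL1 and related factors, where N is any base. Among all 33469 promoters of the table, 27% held a GATA motif, 49.2% CACCC and 65.5% CANNTG in the same window. In no member did a GATA motif and CACCC share bases. These matches describe letters and not binding.

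The arrays of the 3 groups were not equally bright. On control and MASM + TBI arrays 56.2% to 60.2% of spots were well above background, against 64.1% to 70.1% on TBI arrays. TBI rat 3 had the brightest array, with a 75th percentile of 414 intensity units before normalization against 200 to 252 on the 9 other arrays. The control rats and MASM + TBI rat 3 shared slide 1, the TBI rats slide 2 and MASM + TBI rats 1, 2 and 4 slide 3, so that TBI and slide cannot be told apart. The labels were checked with Cdkn1a, a p53 target induced by radiation. It stood at 8.01 to 8.84 in control rats and at 12.80 to 14.06 in the 7 irradiated rats. This check does not tell TBI from MASM + TBI rats. Alb, the main product of hepatocytes, differed by -0.16 ± 0.09 (log2, standard error) between TBI and control rats by its brightest probe, and by 0.16 and -0.05 by the other two. In whole liver, fewer cells of a type and less RNA per cell cannot be told apart.

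The scanner software marks a spot as well above background or not. Every array of at least 1 group carried that mark for 5 of the 9 genes (Alas2, Ahsp, Slc4a1, Epb42 and Tal1), which are called detected here, some arrays carried it for 2 (Klf1 and Gata1) and none for 2 (Rhag and Hemgn). The detected genes did not share a sign. In both irradiated groups the estimated differences from control were below 0 for Alas2 and Ahsp, above 0 for Slc4a1 and Epb42 and close to 0 for the brightest probe of Tal1, and of these only that of Ahsp in MASM + TBI rats passed the test. A probe was called where limma's adjusted p was under 0.05 and the fold was 1.5 or more. By that rule 0 of 9 members were called between TBI and control rats, where 4.5% of all probes were called (2.49% lower and 2.01% higher). Against control rats, 1 member was called lower in MASM + TBI rats (Ahsp) and 0 higher, where 2.35% of all probes were called (1.43% lower and 0.927% higher). The comparison of MASM + TBI with TBI rats called 0 members, where 1.39% of all probes were called (0.624% lower and 0.766% higher).

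**Figure D1:**
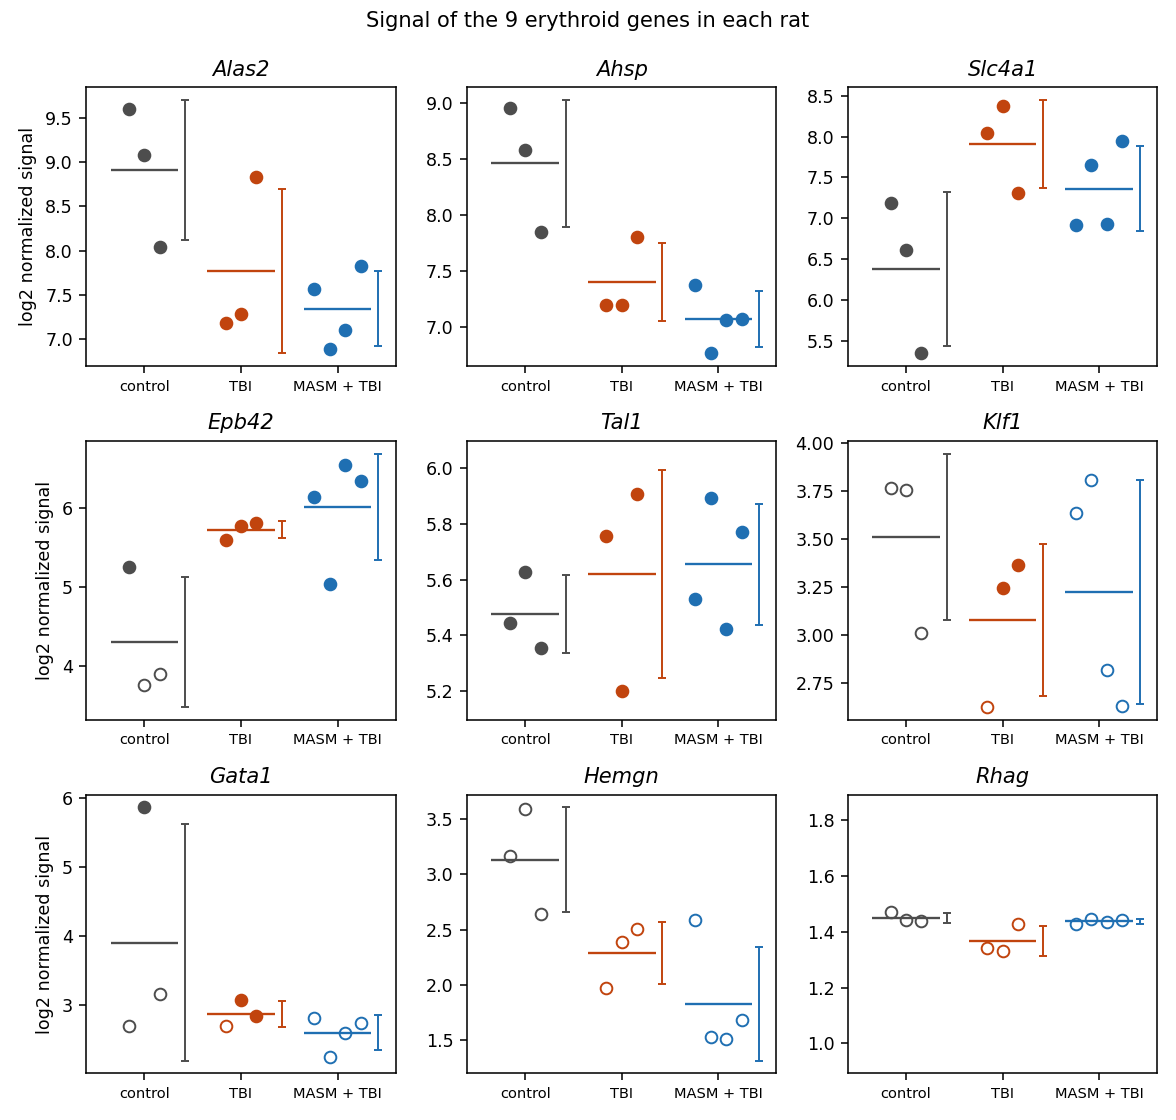
Log2 normalized signal (y axis, a separate range for each gene) of the brightest probe of each of the 9 genes in each rat of the 3 groups (x axis). Filled points are arrays well above background, open points are not, horizontal lines are group means and vertical bars are ± 1 SD. Ahsp was lower in all 7 irradiated rats than in any control rat, Epb42 was higher in all 3 TBI rats than in any control rat, and Klf1, Gata1, Hemgn and Rhag were well above background on 3 arrays or fewer.

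The 2 members concerned with making haemoglobin had differences below 0 in both irradiated groups, of which 1 passed the test (Ahsp in MASM + TBI rats). Alas2 read 9.60, 9.08 and 8.05 in control rats 1 to 3, 7.18, 7.28 and 8.84 in TBI rats 1 to 3, and 7.56, 6.89, 7.10 and 7.83 in MASM + TBI rats 1 to 4. TBI rat 3 lay between the control rats, while all 4 MASM + TBI rats lay below the lowest control rat. The mean was 8.91 ± 0.79 (SD, n = 3) in control, 7.77 ± 0.93 (n = 3) in TBI and 7.35 ± 0.43 (n = 4) in MASM + TBI rats. TBI differed from control by -1.14 ± 0.53 (log2, standard error; limma adjusted p = 0.238), and MASM + TBI by -1.56 ± 0.50 (adjusted p = 0.147, unadjusted p = 0.0127). Neither difference passed the adjusted threshold. Leaving out 1 rat at a time moved the difference between TBI and control from -1.68 (without TBI rat 3) to -0.797 (without control rat 1), with adjusted p from 0.0758 to 0.482. After normexp, another background correction with an offset of 50 that shrinks differences between dim spots, the differences were -0.762 and -1.01.

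Ahsp read 8.95, 8.58 and 7.84 in control rats, 7.20, 7.20 and 7.80 in TBI rats, and 7.38, 6.77, 7.07 and 7.08 in MASM + TBI rats. All 7 irradiated rats lay below the lowest control rat, with TBI rat 3 only just below it. The mean was 8.46 ± 0.56 (SD, n = 3) in control, 7.40 ± 0.35 (n = 3) in TBI and 7.07 ± 0.25 (n = 4) in MASM + TBI rats. In MASM + TBI rats Ahsp fell 2.61-fold relative to control (log2 difference -1.39 ± 0.28, limma adjusted p = 0.0386). In TBI rats the difference was -1.06 ± 0.30 and missed the adjusted threshold (adjusted p = 0.0784, unadjusted p = 0.00671). The call in MASM + TBI rats was lost when any of 8 rats was left out (control rats 1 and 2, TBI rats 1 and 2, and each MASM + TBI rat), with differences of -1.14 to -1.49 and adjusted p from 0.0521 to 0.124. Without control rat 3, the lowest of its group, both differences passed, at -1.36 for TBI (adjusted p = 0.0391) and -1.69 for MASM + TBI rats (adjusted p = 0.0228). After normexp the differences were -0.679 for TBI and -0.853 for MASM + TBI rats (adjusted p = 0.0315).

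Within slide 1, where the 3 control rats can be set beside 1 MASM + TBI rat, MASM + TBI rat 3 lay 1.81 below the control mean for Alas2 (7.10 against 8.91) and 1.39 below it for Ahsp (7.07 against 8.46). Both values were below the lowest control rat. With slide as a fixed block the comparison rests on this 1 rat, assumed to vary like the others, and the difference for Ahsp did not pass (-1.39 ± 0.47, adjusted p = 0.272).

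The 2 detected membrane members had differences above 0, none of which passed the test. The brighter of the probes for Slc4a1 read 7.18, 6.62 and 5.35 in control rats, 8.04, 8.37 and 7.31 in TBI rats, and 6.92, 7.65, 6.93 and 7.95 in MASM + TBI rats. The TBI rats all lay above the control rats, with TBI rat 3 only just above control rat 1, and 2 of the 4 MASM + TBI rats lay among the control rats. The mean was 6.38 ± 0.94 (SD, n = 3) in control, 7.91 ± 0.54 (n = 3) in TBI and 7.36 ± 0.52 (n = 4) in MASM + TBI rats. TBI differed from control by 1.53 ± 0.50 (log2; limma adjusted p = 0.117, unadjusted p = 0.0153) and MASM + TBI by 0.98 ± 0.47 (adjusted p = 0.346). Without control rat 3 these values were 1.01 and 0.46, and after normexp 0.766 and 0.45. The second probe for Slc4a1 was well above background on no array, so these values rest on a single probe.

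Epb42 read 5.25, 3.76 and 3.91 in control rats, of which only control rat 1 was well above background. It read 5.60, 5.77 and 5.81 in TBI rats, and 6.13, 5.03, 6.54 and 6.34 in MASM + TBI rats, all well above background. Only MASM + TBI rat 2 lay within the control range. The mean was 4.31 ± 0.82 (SD, n = 3) in control, 5.73 ± 0.11 (n = 3) in TBI and 6.01 ± 0.67 (n = 4) in MASM + TBI rats. The difference was 1.42 ± 0.47 for TBI (limma adjusted p = 0.117) and 1.71 ± 0.44 for MASM + TBI rats (adjusted p = 0.0848, unadjusted p = 0.00419). Both are set against a control mean for which 2 of 3 arrays were not well above background, so their size is uncertain, and after normexp they were 0.32 and 0.41. The difference in MASM + TBI rats passed without control rat 1 (2.18, adjusted p = 0.0341) or without MASM + TBI rat 2 (2.03, adjusted p = 0.0433). On slide 1 MASM + TBI rat 3 lay 2.24 above the control mean.

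Tal1 was measured by 3 probes that did not give the same picture. The brightest read 5.45, 5.63 and 5.36 in control rats, 5.76, 5.20 and 5.91 in TBI rats, and 5.53, 5.89, 5.42 and 5.77 in MASM + TBI rats, so that the groups overlapped. It differed from control by 0.14 ± 0.20 in TBI and 0.18 ± 0.19 in MASM + TBI rats (limma adjusted p = 0.698 and 0.724). The second probe had differences of 0.03 and 0.44. The dimmest was well above background on 1 of 3 control arrays and on all 7 arrays of irradiated rats, with differences of 0.80 ± 0.21 (adjusted p = 0.0681) and 0.75 ± 0.20 (adjusted p = 0.0945). None of the 3 was called.

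The other 4 members were above background on few arrays or on none. Klf1 was well above background in TBI rats 2 and 3 and in no other rat, with readings between 2.63 and 3.81. TBI rats 2 and 3 read 3.24 and 3.36, below control rats 1 and 2, which were not above background (3.77 and 3.75). No fold change could be given against the control rats. Gata1 read 2.70, 5.87 and 3.16 in control rats, and control rat 2 was the only one well above background. The irradiated rats read 2.26 to 3.08, with TBI rats 2 and 3 above background. No fold change is given for Gata1, since the control mean rests on that 1 rat. Hemgn read 2.64 to 3.59 in control, 1.97 to 2.5 in TBI and 1.51 to 2.59 in MASM + TBI rats, not well above background on any array, and therefore has no fold. Both probes for Rhag stayed between 1.33 and 1.47 on all 10 arrays and were well above background on none.

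By the study's unadjusted threshold (p under 0.05 with the same fold), 2 of 9 members were higher in TBI than in control rats. These were Slc4a1 and Epb42, where 6.52% of all probes were higher. The 2 lower were Ahsp and the undetected Hemgn, where 6.09% were lower (12.6% in both directions). In MASM + TBI rats 1 was higher (Epb42), against 3.52% of all probes, and 3 were lower (Alas2, Ahsp and Hemgn), against 4.54% (8.06% in both directions). By the test that the study's methods name, run on the same values at the same threshold, 0 members were higher and 0 lower in TBI rats, where 3.23% and 3.86% of all probes were, and 1 was higher and 2 were lower in MASM + TBI rats, where 2.52% and 3.24% were. The median difference over the 9 members was -0.43 in TBI and -0.29 in MASM + TBI rats relative to control. Over all probes it was -0.03 and 0.00. Both medians of the members are the values of Klf1, which was not above background in control rats, so they describe a background reading. These counts rest on few genes that share the same 3 control rats, and the 2 comparisons are therefore not independent of each other.

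**Figure D2:**
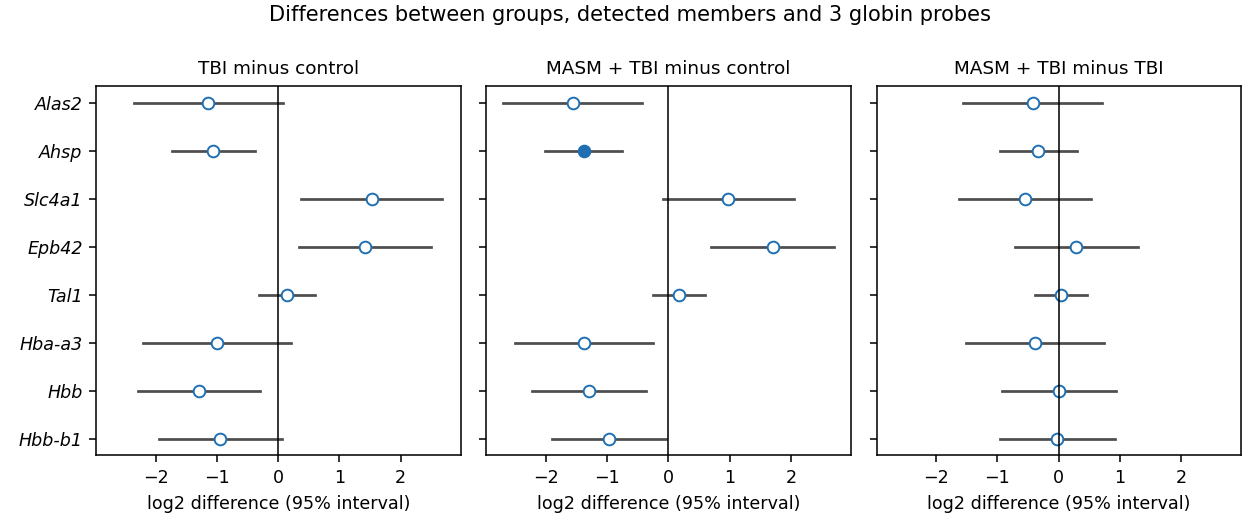
Log2 differences between groups (x axis) with 95% intervals from limma for the 5 detected members and 3 globin probes (y axis), 1 panel per comparison. The filled point passed an adjusted p under 0.05, open points did not. Alas2, Ahsp and the globin probes lay below 0 and Slc4a1 and Epb42 above 0 in both comparisons with control rats, and all intervals between MASM + TBI and TBI rats held 0.

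Pretreatment with MASM made no difference that could be shown in any of the 5 detected members. The TBI rats shared no slide with the MASM + TBI rats, so in this comparison MASM and slide cannot be told apart. The difference between MASM + TBI and TBI rats was -0.42 for Alas2 (95% interval -1.56 to 0.71), -0.33 for Ahsp (-0.96 to 0.30), -0.55 for Slc4a1 (-1.62 to 0.53), 0.29 for Epb42 (-0.72 to 1.29) and 0.03 for Tal1 (-0.39 to 0.46). The limma adjusted p-values ran from 0.591 for Ahsp to 0.953 for Tal1. With 3 and 4 rats the intervals still allow a difference of more than 2-fold upward for Epb42 and of more than 2-fold downward for Alas2 and Slc4a1. At the unadjusted threshold 0 of 9 members were called, where 7.97% of all probes were (4.83% lower and 3.15% higher). Without TBI rat 3 the estimate for Alas2 turned to 0.11.

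Globins are the main protein of red cells and were not among the 9 genes. Hba-a3 (alpha-globin) read 16.42, 16.05 and 15.15 in control rats, 14.40, 14.14 and 16.07 in TBI rats, and 14.70, 14.18, 14.17 and 14.90 in MASM + TBI rats. Hbb (beta-globin) read 11.84, 11.62 and 10.59, then 9.67, 9.55 and 10.93, then 10.35, 9.70, 9.88 and 10.28. Hbb-b1 read 15.81, 15.67 and 14.44, then 13.89, 14.02 and 15.17, then 14.62, 14.07, 14.11 and 14.55. In each of the 3 probes control rat 3 was the lowest control rat and TBI rat 3 the highest TBI rat, as in Alas2 and Ahsp. TBI differed from control by -1.0 ± 0.53 for Hba-a3, -1.30 ± 0.44 for Hbb and -0.94 ± 0.44 for Hbb-b1, with limma adjusted p of 0.293, 0.121 and 0.237. MASM + TBI differed by -1.38 ± 0.49, -1.29 ± 0.41 and -0.97 ± 0.41, with adjusted p of 0.194, 0.144 and 0.275. None was called in the fit over all rats without a block. With slide as a random block Hbb passed in TBI rats (-1.275, limma adjusted p = 0.0398). Leaving out 1 rat moved the TBI differences of Hba-a3 between -1.60 (without TBI rat 3) and -0.639 (without TBI rat 2), those of Hbb between -1.74 and -1.05 and those of Hbb-b1 between -1.38 and -0.693, of which only Hbb without TBI rat 3 passed (adjusted p = 0.0392). The other globins with a probe were dim. Hbg1 differed by 0.67 ± 0.19 in MASM + TBI rats (adjusted p = 0.111) and by 0.16 in TBI rats, and Hbe2 by -0.05 and -0.03. Hbe1, detected on 3 of 3 control, 1 of 3 TBI and 3 of 4 MASM + TBI arrays, read 4.22 to 5.11, then 1.46, 2.65 and 6.17, then 3.94 to 5.17, and its difference in TBI rats was -1.29 ± 1.03 (adjusted p = 0.488). Hbz was at background on all arrays. Rat globin genes exist in near-identical copies, which these probes may not tell apart.

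The signal of Alas2 followed the globins from rat to rat. Over the 10 arrays Pearson's r between Alas2 and Hba-a3 was 0.99 (Spearman's rho 0.90), and it was 0.98 after the mean of each group had been taken off both. Without the 2 arrays farthest from the median of Alas2 it was 0.98. Alas2 and Ahsp had an r of 0.94 (rho 0.90), 0.90 within groups and 0.84 without the 2 farthest arrays. Among 9574 other detected genes, Hba-a3, Hbb and Hbb-b1 were the 3 genes most like Alas2 by Pearson's r, and Hbb ranked 2 for likeness to Ahsp, after Cdc25b. By Spearman's rho Bmyc ranked first for Alas2, with Hba-a3 at rank 8 and the other two outside the first 10, and no globin was among the first 10 for Ahsp. Slc4a1 and Epb42 did not follow the globins. Their r with Hba-a3 was -0.36 and -0.42 over all arrays and 0.10 and 0.37 within groups, and between the 2 of them it was 0.59 over all arrays and 0.21 within groups. The likeness to single members was added after the values had been seen. These values are descriptions over 10 rats whose arrays share slides and normalization.

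**Figure D3:**
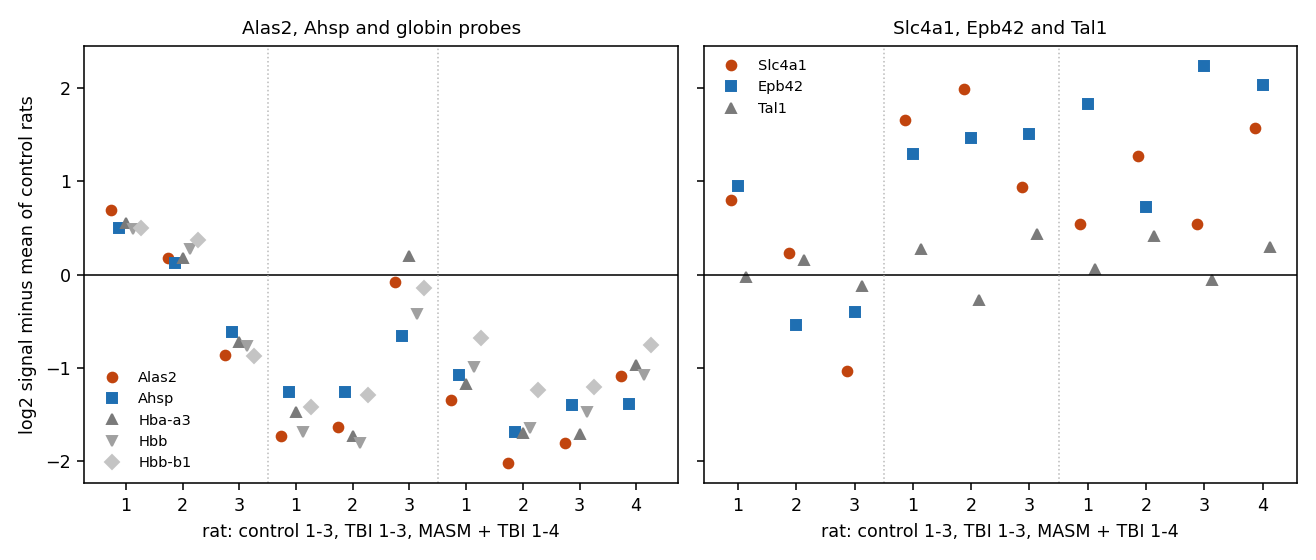
Log2 signal minus the mean of the control rats (y axis) in each rat (x axis, groups parted by dotted lines), with Alas2, Ahsp and 3 globin probes on the left and Slc4a1, Epb42 and Tal1 on the right. On the left the 5 probes lie close together in most rats, low in control rat 3 and high in TBI rat 3, while on the right Slc4a1 and Epb42 are above 0 in all 7 irradiated rats and differ from each other between rats.

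Taken per rat as the mean of Alas2, Ahsp and the 3 globin probes relative to the control mean, TBI rats 1 and 2 lay at -1.51 and -1.54 and TBI rat 3 at -0.22, and the MASM + TBI rats lay between -1.66 and -1.05. Control rat 3 lay at -0.77. The mean over the 5 detected members, by contrast, ran from -0.61 to 0.58 in control rats and from -0.26 to 0.43 in irradiated rats, since members of opposite sign cancel in it. The 10 genes most like that mean were Hibch, Pxmp4, Etf1, Ppp3cb, Slc16a11, Map1b, Usp12, Pdpk1, Olfml2a and Oat (Pearson's r from 0.82 to 0.94 over 10 arrays), none of them a gene of the erythroid lists. The choice of measure decided this list: 3 of the 10 were shared by Spearman's rho and 0 with the mean over all members, where Hbb-b1, Hbb and Hba-a3 ranked 2, 6 and 7.

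Other genes of red cell formation were read from 6 lists of globins, heme synthesis and iron import, red cell membrane and skeleton, erythroid transcription factors, the erythropoietin pathway, and late erythroid proteins. Of 98 such genes with a probe, 89 were detected. In TBI rats 1 was called higher and 5 lower than in control rats, and in MASM + TBI rats 2 were called higher and 3 lower. The shares over all probes were 2.01% and 2.49% in TBI and 0.927% and 1.43% in MASM + TBI rats. None was called when MASM + TBI was set against TBI.

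Of 22 heme and iron genes 1 was called higher in TBI and 2 in MASM + TBI rats, and 0 were called lower, with a median difference of 0.00 and 0.13. The lowest estimates in TBI rats were those of Slc6a9, a glycine transporter, and Slc25a37, the mitochondrial iron importer mitoferrin. At -0.92 ± 0.27 and -0.79 ± 0.20 they missed the adjusted threshold (limma adjusted p = 0.0867 and 0.0573). In MASM + TBI rats the 2 genes differed from control by -0.75 ± 0.25 and 0.03 ± 0.19. From TBI rats the MASM + TBI rats differed by 0.17 ± 0.25 and 0.82 ± 0.19 (adjusted p = 0.781 and 0.0795). Tfrc, the transferrin receptor through which cells import iron, read 9.86 to 10.05 in control, 11.03 to 11.18 in TBI and 11.24 to 11.62 in MASM + TBI rats. It rose by 1.19 ± 0.11 (limma adjusted p = 0.0014) and by 1.51 ± 0.10 (adjusted p = 0.00048). Of its other probes 1 was called higher in both groups (1.34 and 1.79) and 1 only in MASM + TBI rats (1.25), with a difference of 0.69 in TBI rats that did not pass (adjusted p = 0.0966). Cpox, an enzyme of a late step of heme synthesis, rose by 0.60 ± 0.11 in MASM + TBI rats (adjusted p = 0.0324) and differed by 0.22 in TBI rats. Alas1, the form of the starting enzyme that all cells use, was 0.47 ± 0.20 above control in TBI rats (adjusted p = 0.202), with a difference of 0.18 in MASM + TBI rats, against the estimates below 0 for its erythroid counterpart Alas2. The Cpox call was lost when control rat 2 or 3 or MASM + TBI rat 1, 3 or 4 was left out (adjusted p from 0.0672 to 0.12).

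Of 25 late erythroid genes, a list that also holds Cpox, 3 were called lower in both irradiated groups, and each is also known from other cells. Ctse, an aspartic protease of the endosome, fell by 2.01 ± 0.28 in TBI and by 2.22 ± 0.26 in MASM + TBI rats (limma adjusted p = 0.00748 and 0.00474). After normexp its differences were -0.812 and -0.887, and with a replicate block that of MASM + TBI rats no longer passed (adjusted p = 0.0523). Pklr, pyruvate kinase of liver and red cells, fell by 1.22 ± 0.23 and by 1.39 ± 0.22 (adjusted p = 0.0249 and 0.0165). Ube2l6, which attaches the ubiquitin-like protein ISG15, fell by 0.91 ± 0.19 and by 0.94 ± 0.18 (adjusted p = 0.0327 and 0.0326). The Ube2l6 calls were lost without control rat 2 or 3 or MASM + TBI rat 1 or 4 in both comparisons, without any TBI rat in the first and without MASM + TBI rat 2 or 3 in the second (adjusted p from 0.0503 to 0.119). Those of Pklr were lost without control rat 3 in both, without control rat 1 or TBI rat 2 or 3 in the first and without MASM + TBI rat 4 in the second (adjusted p from 0.0502 to 0.086). Among 18 membrane and skeleton genes only Add1, an adducin present in many tissues, was called, 0.70 ± 0.10 lower in TBI rats (adjusted p = 0.00711). In MASM + TBI rats its difference was -0.50 ± 0.09 (adjusted p = 0.0268), short of the 1.5-fold limit. The other gene called lower in TBI rats was Kit, which was not well above background on any array.

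None of 16 transcription factors and co-factors was called. Nfe2 read 5.62 to 6.90 in control, 5.25 to 7.20 in TBI and 5.96 to 8.21 in MASM + TBI rats, and Gata2 read 3.79 to 4.45, 3.83 to 4.20 and 3.54 to 4.26, so that the groups of both overlapped. Epor, the receptor of erythropoietin, was higher in all 7 irradiated rats (4.48 to 4.93) than in any control rat (3.52 to 4.34, of which 2 of 3 were well above background), with differences of 0.66 ± 0.23 and 0.62 ± 0.21 that missed the adjusted threshold (limma adjusted p = 0.129 and 0.176). After normexp they were 0.126 and 0.121, without control rat 1 they were 0.389 and 0.353, and with slide as a random block that of TBI rats passed (adjusted p = 0.0365). Car1, a carbonic anhydrase of red cells, differed by -0.73 ± 0.28 in TBI rats (adjusted p = 0.163). Its difference in MASM + TBI rats was -0.50 ± 0.26. Leaving out 1 rat moved the difference in TBI rats between -1.07 (without TBI rat 1, which passed at an adjusted p of 0.0241) and -0.427 (without TBI rat 3), and after normexp it was -0.274. Car2, another carbonic anhydrase of the late erythroid list, differed by -0.08 ± 0.22 in TBI and by 0.18 ± 0.20 in MASM + TBI rats. Epo itself was well above background on no array. Gfi1b and Trim10 had no probe with a symbol and were not analysed here.

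**Figure D4:**
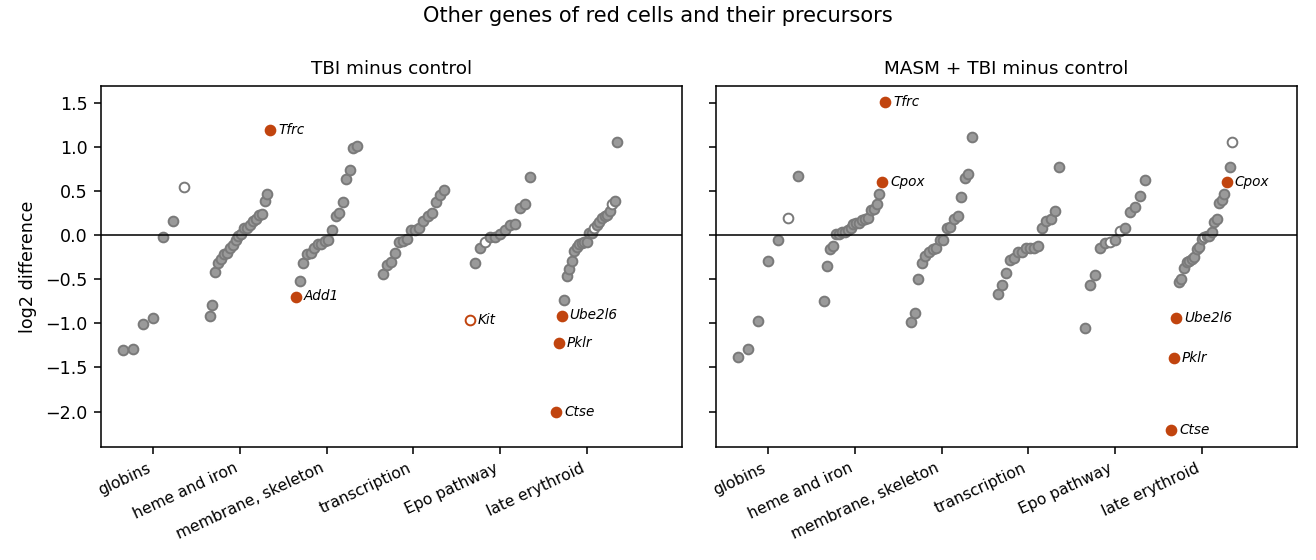
Log2 differences from control (y axis) of the genes in 6 lists of red cells and their precursors (x axis, genes ordered by value within a list), for TBI rats on the left and MASM + TBI rats on the right. Coloured points were called, and open points were well above background on no array. Tfrc was the highest and Ctse the lowest point in both panels, Pklr and Ube2l6 were called below 0 in both, and 90 of 98 genes lay within 1 of 0 in each.

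Some markers of other blood cells were called in the same livers, where 2.49% of all probes were called lower in TBI and 1.43% in MASM + TBI rats. Of 11 T lymphocyte genes with a probe, 4 were called lower in TBI and 3 in MASM + TBI rats, and the summed signal ran from 724 to 975 intensity units in control, 474 to 653 in TBI and 310 to 498 in MASM + TBI rats (Cd3e, Cd5 and Cd28 at background on all arrays, Cd3e among the called). Of 7 B lymphocyte genes 1 was called lower in each (Cd79b), with summed signals of 238 to 276, 192 to 350 and 161 to 220 (Cr2 among those at background). Of 14 mast cell and basophil genes 3 were called lower in each, with summed signals of 2098 to 2416, 1821 to 1939 and 1553 to 1772 (Ms4a2, Fcer1a, Kit and Mrgprx2 at background, Kit among those called in TBI rats). Of 13 platelet genes 1 was called higher in TBI rats (Gp1ba, well above background on 1 of 3 control arrays), where 2.01% of all probes were, and of 13 neutrophil genes 0 were called. Of 13 cell cycle genes 9 were called lower and 1 higher (Tyms) in each irradiated group. The summed signal of the 9 members was 617 to 1532 in control, 677 to 982 in TBI and 545 to 763 in MASM + TBI rats. The part of these other cells in the differences of the members was not tested.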

How the data were processed

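RNA of 10 rat livers was hybridised to single-colour Agilent rat arrays. The deposited values are spot intensities from Agilent Feature Extraction 10.7, which subtracted background and spatial trend, and the authors' deposited table equals the scanner files. Probes follow the rn4 build. Here control spots (1639 of 45018) and outlier spots (76 to 112 per array) were dropped, log2 intensities were quantile normalized as in the study's methods, and spots of a probe were averaged. Dim probes lose most precision. In limma 3.58.1 (R 4.3.3) 1 model covered all 3 groups, and p-values were adjusted (Benjamini-Hochberg) over 41012 probes. The fit was tested on simulated data. Accessions gave symbols to 16968 probes through RefSeq names (GRCr8), with the brightest probe standing for a gene.

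The text names all members, called genes of the other lists, a fixed set of further erythroid genes (globins, Epor, Tfrc, Nfe2, Gfi1b, Car1, Trim10, Alas1, Gata2), the checks Cdkn1a and Alb, and the 10 genes most like the members' mean. Members and lists were chosen with earlier results of these data known. Kit, Cdc25b, Bmyc, Slc6a9, Slc25a37, Car2 and the genes of other cell types were named after their values were seen. Some genes of these lists are not reported here. The labels give rats of 1 group no litter or cage. The study's heat map names control and TBI arrays the other way round from the labels. The labels were followed, and Cdkn1a went with them. The radiation dose in the labels differs from that in the study's methods. Alternatives were other normalizations and backgrounds, a filter on dim probes, separate fits, Welch's t-test, replicate and slide blocks, and leaving out each rat.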

Additional observations from a re-analysis of the deposited data

How the results depend on the processing

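The limits lie in the small groups, in slides that differ between groups, and in dim probes. Ahsp was called lower in MASM + TBI than in control rats. The call was lost with 2 groups per fit (limma adjusted p = 0.0592) and with a replicate block (0.154). It was also lost with slide as a fixed block (0.272) and under Welch's t-test (adjusted p = 0.313). Under the settings that kept it, adjusted p was 0.0136 to 0.0390. The cause was not tested. The replicate numbers gave no sign of pairing. Deviations of same-numbered rats had correlations of -0.125 to 0.169, with 1 of 9 over 0.1. Those of differently numbered rats ran from -0.134 to 0.149, with 3 of 24 over 0.1.

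Between TBI and control rats 0 members were called lower and 0 higher, 2 and 2 at the unadjusted threshold, and 5 lower and 1 higher of the other erythroid genes. Scaling to the 75th percentile gave 2 members lower (Ahsp and Rhag, the latter at background) and 1 higher (Epb42). Normexp gave 1 lower and 1 higher at the unadjusted threshold. Testing only detected probes gave 1 member lower (Ahsp). With 2 groups per fit 2 other genes were lower. Welch's t-test gave 0 lower and 0 higher at the unadjusted threshold and 0 lower and 0 higher of the other genes. With a replicate block 1 member was lower at the unadjusted threshold and 3 other genes were lower. With slide as a random block, whose estimated correlation was -0.133 and therefore shrinks the errors between slides, 1 member was lower (Ahsp) and 2 higher (Slc4a1 and Epb42), with 8 other genes lower and 3 higher.

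Between MASM + TBI and control rats 1 member was called lower and 0 higher, 3 and 1 at the unadjusted threshold, and 3 lower and 2 higher of the other genes. Normexp gave 0 higher at the unadjusted threshold and 1 other gene higher. Only detected probes gave 1 member higher. This was Epb42, which passed that filter through the irradiated groups alone, where it read higher. With 2 groups per fit 0 members were lower. Welch's t-test gave 0 members lower, with 0 other genes lower and 1 higher. The replicate block gave 0 members lower, with 1 other gene lower and 1 higher. Slide as a random block gave 2 members lower (Ahsp and the undetected Hemgn) and 1 higher (Epb42), and 2 higher at the unadjusted threshold. Slide as a fixed block gave 0 members lower, with 1 other gene lower and 1 higher.

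Between MASM + TBI and TBI rats all of these counts were 0. Scaling to the 75th percentile gave 1 member higher (Rhag, at background), 1 higher at the unadjusted threshold, and 1 lower and 2 higher of the other genes. Slide as a random block gave 2 other genes higher.

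Over all probes 1845 were called between TBI and control rats, against 6985 with the 75th percentile, 553 with normexp, 948 with 2 groups per fit, 10 by the t-test, 1026 with the replicate block and 4077 with slide as a random block. The 965 called between MASM + TBI and control rats became 455 with normexp, 28 by the t-test, 298 with the replicate block, and 1801 and 525 with slide as a random and a fixed block. The 570 called between MASM + TBI and TBI rats became 5179 with the 75th percentile, 79 with normexp, 255 with 2 groups per fit, 3 by the t-test, 22 with the replicate block and 1401 with slide as a random block.

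Leaving out each rat gave these ranges. Over all probes 914 to 2315 were called between TBI and control, 462 to 1041 between MASM + TBI and control, and 240 to 1081 between MASM + TBI and TBI rats. Between TBI and control rats 0 to 1 members were lower, 1 to 3 lower and 1 to 2 higher at the unadjusted threshold, and 2 to 6 lower and 1 to 2 higher of the other genes. With MASM + TBI against control rats 0 to 1 were lower, 0 to 1 higher and 1 to 2 higher at the unadjusted threshold, and 1 to 3 lower and 1 to 2 higher of the other genes. With MASM + TBI against TBI rats 0 to 1 were lower at the unadjusted threshold, and 0 to 4 lower and 0 to 2 higher of the other genes.

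Some signs turned. With slide as a fixed block Tal1 was -0.0551 between MASM + TBI and control rats. Between MASM + TBI and TBI rats the 75th percentile gave -0.0727 for Klf1, -0.0450 for Tal1 and 0.0770 for Hbb-b1. Tal1 was -0.0084 after normexp, -0.0056 with the replicate block and -0.0540 by another probe, and Hbb was -0.11 by the t-test and -0.0687 with the block. Without single rats Alas2 ran from -0.71 to 0.11, Hba-a3 from -0.75 to 0.22, Hbb from -0.24 to 0.45, Hbb-b1 from -0.26 to 0.38, Klf1 from -0.0804 to 0.34 and Tal1 from -0.18 to 0.18.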
